A study of Drosophila melanogaster with 27 samples.

Results

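The comparison described here sets *Drosophila* embryos that expressed the chimera Upf1-Nos against embryos that expressed Upf1 alone, both hand-sorted at about nuclear cycle 9. Its members were taken from the genotype and stage labels and are 6 of the 27 RNA-seq libraries of the series, 3 of Upf1-Nos and 3 of Upf1. In both genotypes the mothers carried a UAS transgene driven by a maternal alpha-tubulin GAL4-VP16 driver, beside their own *Upf1* and *nos* genes. The Upf1-Nos transgene fuses Upf1 to genomic *nos* with its 3′ UTR, and the Upf1 transgene joins the *Upf1* cDNA to the same 3′ UTR. Values from further sets, each of 3 libraries a group, are given where they bear on a gene. These are cycle 9 embryos that expressed Upf1-NosL7 (the same chimera with a short deletion in the C-terminal tail of Nos), cycle 9 embryos of wild type (*w*1118), and unsorted embryos of *nos* mutant mothers (*nos*BN over Df(3R)Exel6183) beside wild type at 0 to 1 and at 2 to 3 hours.

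Nanos (Nos) is a translational repressor that acts with the RNA-binding protein Pumilio (Pum), best known for shutting off maternal *hunchback* (*hb*) mRNA in the posterior of the fly embryo. Upf1 is the RNA helicase at the centre of nonsense-mediated decay (NMD), the pathway that destroys mRNAs with premature stop codons. Fusing it to an RNA-binding protein brings the decay machinery to mRNAs which that protein recognizes. The sorted embryos still lived almost wholly on mRNA made by the mother, and the comparison asks which of these mRNAs depended on the Nos portion of the chimera.

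RNA came from pools of hand-sorted embryos, and the methods do not say how many transgenic lines per genotype entered the libraries. The study calls the replicates biological, and neither the labels nor the methods say what separates them, so p-values measure the spread between these samples, which may be partly technical. Nuclei were abnormally placed in many Upf1-Nos embryos, which were therefore sorted by apparent age. Expected counts summed to between 14022879 and 14651409 in the Upf1-Nos libraries and between 14681938 and 18032400 in the Upf1 libraries, and 6857 genes passed the filter on low counts. Upf1-Nos libraries were scaled on 20 abundant genes that the study took as unaffected. TMM scaling, which takes most genes as unchanged, moved the median log2 fold change of all genes to 0.06 from −0.51, so that the sign of small changes depends on this choice. Levels below are normalized CPM (counts scaled to library size), and fold changes are Upf1-Nos over Upf1 on the log2 scale. Over 12 markers of maternal RNA, the summed level was 750 to 983 CPM in Upf1-Nos and 4230 to 4426 CPM in Upf1, and 9 of the 12 were called lower. Over 20 zygotic markers of older embryos it was 32.7 to 37.4 CPM in Upf1-Nos and 26.0 to 30.4 CPM in Upf1, and no marker was at 0 in either. Of 14 eggshell and follicle cell markers, 10 were at 0 in Upf1-Nos and 9 in Upf1, and no library of the pair exceeded a sum of 0.548 CPM. For 10 markers of larval and adult cells the sums were 0.157 to 0.436 CPM in Upf1-Nos and 0.246 to 1.23 CPM in Upf1, with *Mhc* and *ninaE* at 0 in Upf1-Nos and *Lsp2* and *Hml* at 0 in Upf1. Their part in the results was not tested.

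A large fraction of the maternal transcriptome was depleted in Upf1-Nos embryos, and almost nothing was enriched. Of 6857 genes, 2727 (39.8%) were lower in Upf1-Nos than in Upf1 and 45 (0.656%) were higher. A call required a Benjamini-Hochberg adjusted p under 0.05 in the edgeR quasi-likelihood test, with more than a 2-fold difference. The median gene called lower was 6.23-fold lower. Genes called lower made up 9.91%, 8.14% and 9.80% of the normalized CPM in the Upf1-Nos libraries, against 30.2%, 31.4% and 31.5% in the Upf1 libraries. These genes were chosen on the same libraries, so the share is a description of the size of the loss. With TMM scaling and no correction the split was 2194 lower to 206 higher. Since the RNA was poly(A) selected, these libraries alone cannot tell loss of an mRNA from loss of its tail. Nor can they tell fewer embryos that hold an mRNA from less of it in each. For a small set of mRNAs the paper also used RT-qPCR primed with random hexamers, in Upf1-Nos against wild type. It reports a close correlation with its RNA-seq values.

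Depletion ran over a wide range of sizes. Among the 2727 genes called lower, 914 (33.5%) were lower by 2- to 4-fold, 660 (24.2%) by 4- to 8-fold, 540 (19.8%) by 8- to 16-fold, 399 (14.6%) by 16- to 32-fold and 214 (7.85%) by more than 32-fold. In 2711 of them no Upf1-Nos library reached the level of any Upf1 library, where over all genes tested, called or not, the 3 Upf1-Nos libraries lay below the 3 Upf1 libraries in 3724 (54.3%). Genes that were not called had a median log2 fold change of −0.03. Depletion reached all levels of expression. When genes were ranked by their level in wild type, the share called lower was 42.2% in the lowest of 5 equal classes, 50.3% in the next, and then 38.5%, 36.5% and 31.5% in the highest. All 45 genes called higher were in the lowest class, at or below 26.7 CPM in wild type. Their number depended on the filter on low counts, with 91 at lower minimums and 124 with no filter. Some entered the test through genotypes where they were high, such as *nolo*, at 0.0345 CPM in wild type and 0.227 CPM in Upf1. The part of the filter in their place in this class was not tested.

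The Upf1-Nos libraries differed among themselves in a uniform way. Replicate 2 was the lowest of the 3 in 2321 of the 2727 genes called lower (85.1%), against 210 for replicate 1 and 192 for replicate 3. Its summed level over these genes was 55275 CPM, where the other two held 78505 and 73805 CPM, and the Upf1 libraries held 303507, 326782 and 324925 CPM. Replicate 2 also took the largest correction factor, 1.47, beside 1.26 and 1.33, and the part of that factor in its low values was not tested. Without it 2639 genes were lower.

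**Figure D1:**
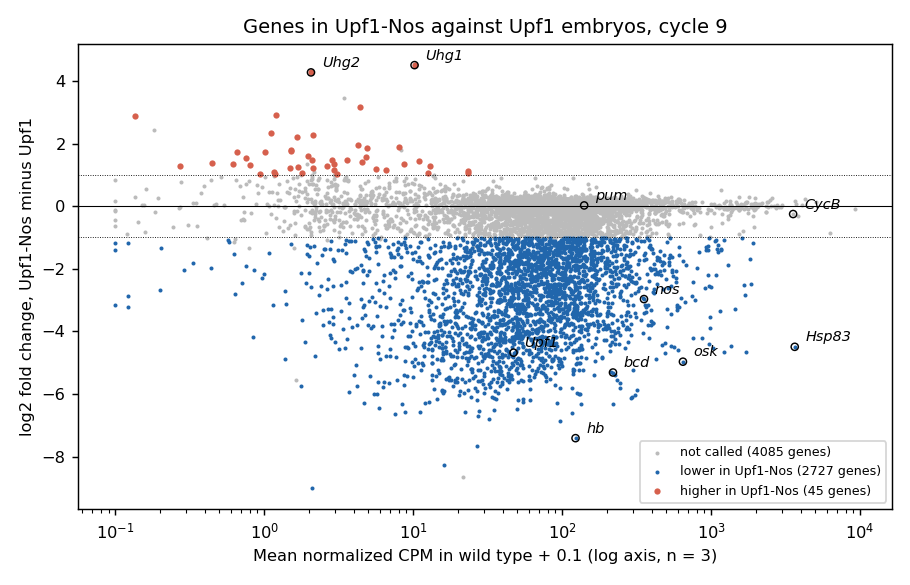
Each point is 1 of 6857 genes, with its mean level in wild type on the x axis (CPM + 0.1, log scale) and its log2 fold change, Upf1-Nos over Upf1, on the y axis. The 2727 genes called lower spread over the whole range of abundance, whereas the 45 called higher all lie at or below 26.7 CPM.

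The 2 genes from which the transgenes were built were both lower in Upf1-Nos embryos. *Upf1* (FBgn0030354) was at 28.6, 15.4 and 23.2 CPM in Upf1-Nos and at 405, 548 and 766 CPM in Upf1, a log2 fold change of −4.68 (standard error 0.29, edgeR adjusted p = 1.43e-09). The files do not separate reads of the transgene from those of the resident gene. In wild type *Upf1* averaged 47.0 ± 14.3 CPM (SD, n = 3), so that the level was raised in the Upf1 libraries (log2 fold change 3.60 over wild type) and not in the Upf1-Nos libraries (−1.07 over wild type). *nos* (FBgn0002962) was at 56.4, 53.6 and 49.1 CPM in Upf1-Nos and at 416, 425 and 402 CPM in Upf1. Its log2 fold change was −2.97 (standard error 0.11, edgeR adjusted p = 1.16e-11), and its level in wild type was 354 ± 43.2 CPM (SD, n = 3). Neither gene therefore checks the label of the Upf1-Nos libraries.

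mRNAs that pattern the anterior of the embryo were among the most depleted. *hb* (FBgn0001180), the gap gene whose maternal mRNA is the classic target of Nos and Pum, was at 1.03, 0.872 and 0.889 CPM in Upf1-Nos and at 129, 169 and 179 CPM in Upf1. It fell by 7.41 on the log2 scale (standard error 0.23, edgeR adjusted p = 3.96e-12). *bcd*, the anterior determinant, was at 8.55, 4.21 and 6.64 CPM in Upf1-Nos against 263, 227 and 279 CPM in Upf1, and fell by 5.31 on the log2 scale (SE 0.23, edgeR adjusted p = 2.98e-11). Both genes separated the genotypes with no overlap. Of the proteins that localize *bcd* mRNA, *exu* fell by 3.80 and *swa* by 1.74 on the log2 scale, whereas *stau* was at 225, 138 and 199 CPM in Upf1-Nos and at 128, 213 and 244 CPM in Upf1 (−0.06, edgeR adjusted p = 0.872). *cad*, a posterior determinant that Bcd represses, had a log2 fold change of −0.50, short of the 2-fold threshold. In this list of 6 anterior and gap factors 4 were lower, with a median log2 fold change of −2.77 beside −0.51 for all genes tested.

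Among Nos and 5 other maternal translational repressors or their partners, 4 of 6 were lower, where 39.8% of all genes tested were lower. *bru1*, which encodes Bruno, a repressor of *osk* translation, was at 64.8, 32.6 and 56.0 CPM in Upf1-Nos and at 843, 996 and 986 CPM in Upf1 (log2 fold change −4.20, standard error 0.20, edgeR adjusted p = 6.57e-11). *cup*, whose product binds eIF4E and blocks initiation, fell by 1.52. *brat*, which works with Nos and Pum on *hb*, was at 208, 126 and 188 CPM in Upf1-Nos and at 254, 372 and 455 CPM in Upf1, with no overlap and a log2 fold change of −1.05. The call for *brat* was lost without Upf1 replicate 3 (−0.82), without Upf1-Nos replicate 2 (−0.88) and with TMM scaling (−0.50). The 2 members that were not called were *pum*, at 236, 135 and 214 CPM in Upf1-Nos and 104, 210 and 260 CPM in Upf1 (0.02, edgeR adjusted p = 0.965), and *smg*, at 1917, 1194 and 1718 CPM against 1200, 1658 and 1990 CPM (−0.01, edgeR adjusted p = 0.985). Smg is the repressor that clears many maternal mRNAs. With TMM scaling *smg* had a log2 fold change of 0.55 (edgeR adjusted p = 0.0246) and 2 of the 6 were lower.

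**Figure D2:**
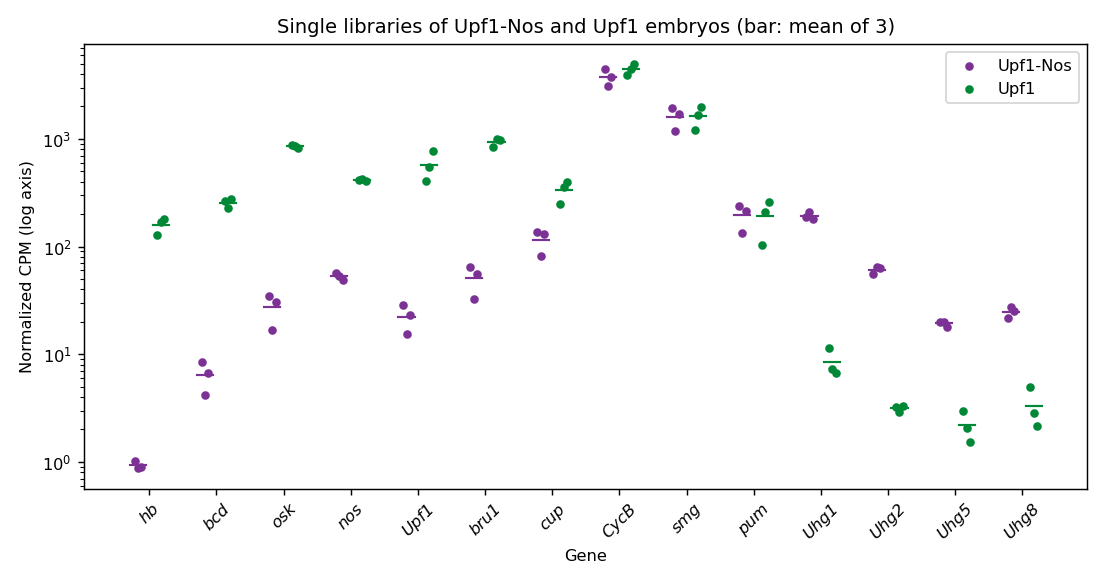
Levels of 14 genes in each of the 3 Upf1-Nos and 3 Upf1 libraries (CPM, log scale, 1 point per library). The points of the genotypes are apart for *hb*, *bcd*, *osk*, *nos*, *Upf1*, *bru1*, *cup* and the *Uhg* genes, and overlap for *CycB*, *smg* and *pum*.

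Germ plasm mRNAs, which specify the germ line at the posterior pole, were depleted in 7 of 10 cases, with a median log2 fold change of −1.90. Over all genes tested 39.8% were lower. *osk*, the gene that assembles the germ plasm, was at 34.5, 16.7 and 30.6 CPM in Upf1-Nos and at 873, 854 and 829 CPM in Upf1 (log2 fold change −4.97, standard error 0.21, edgeR adjusted p = 2.96e-11). *vas*, an RNA helicase of the germ plasm, was at 11.9, 7.90 and 12.9 CPM in Upf1-Nos and 205, 223 and 226 CPM in Upf1 (−4.32). Neither gene showed any overlap between the genotypes. *tud* fell by 3.45, *pgc*, which keeps pole cells transcriptionally silent, by 3.44, *piwi* by 1.92, *gcl* by 1.89 and *Pen*, an importin alpha, by 1.87. *aub*, at 116, 83.8 and 105 CPM against 109, 111 and 134 CPM, and *CycB*, at 4423, 3071 and 3763 CPM against 3956, 4497 and 4940 CPM, overlapped between Upf1-Nos and Upf1. *CycB* encodes a mitotic cyclin whose translation Nos and Pum repress in pole cells. In the piRNA pathway, which silences transposons in the germ line, 8 of 16 genes were lower (median −1.21). The largest falls were those of *cuff* (−5.63) and *del* (−4.52), which act in the nucleus with *rhi*. *rhi* itself had a log2 fold change of −0.16 and *AGO3* one of 0.43, which passed the 2-fold threshold only without the correction for oversampling.

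Many genes of DNA replication were lower in Upf1-Nos. Of 21 genes of the replication fork, 15 were lower and 6 were not called, with a median log2 fold change of −3.05, where 39.8% of all genes tested were lower and their median was −0.51. *PolD1*, the catalytic subunit of DNA polymerase delta, was at 0.703, 0.388 and 0.732 CPM in Upf1-Nos and at 50.2, 58.6 and 54.9 CPM in Upf1 (log2 fold change −6.48, standard error 0.24, edgeR adjusted p = 9.60e-12). *Prim2*, a primase subunit, fell by 6.14, *Cdc45*, a part of the replicative helicase, by 5.63 and *RfC3*, a part of the clamp loader, by 5.26. The clamp itself, *PCNA*, was at 342, 310 and 353 CPM in Upf1-Nos and at 543, 499 and 451 CPM in Upf1, lower in each library but by less than 2-fold (−0.57). Of 16 genes that license origins, 10 were lower and 6 were not called (median −1.68). Subunits of single complexes parted here. *Orc2* fell by 5.53 and *Orc4* by 4.60, whereas *Orc3* fell by 1.31, and of the MCM helicase *Mcm3* fell by 3.81 while *Mcm7* was at 481, 346 and 412 CPM against 348, 350 and 381 CPM (0.20). Among 10 genes of nucleotide synthesis 7 were lower, among them *ras*, the enzyme of guanine nucleotide synthesis (−5.20), and *RnrS* (−4.87) and *RnrL* (−2.25), the subunits of ribonucleotide reductase. With TMM scaling 13 fork, 9 licensing and 5 nucleotide synthesis genes were lower.

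Regulators of the cell cycle ranged from strong falls to values near 0. Of 29 cyclins, kinases and phosphatases, 14 were lower (median −0.80, and 12 lower with TMM scaling). In 18 all Upf1-Nos libraries lay below all Upf1 libraries. Over all genes tested 39.8% were lower, and 54.3% lay below in this way. Between the extremes, *Cks30A* (−1.41) and *Cks85A* (just past 2-fold) were called and *CycA* (−0.80) was not. The call for *Cks85A* lay at the threshold and was lost in 9 of the alternatives. *cort*, a female-specific activator of the anaphase-promoting complex, fell by 4.78, *Myt1*, an inhibitory kinase of Cdk1, by 4.36, *E2f2* by 3.94 and *dap*, an inhibitor of Cyclin E and Cdk2, by 3.72. Of the 3 subunits of the PAN GU kinase, which starts translation at egg activation, *png* (−3.33) and *gnu* (−3.07) fell and *plu* had a log2 fold change of −0.13. The Cdc25 phosphatases also parted. *stg* was at 158, 101 and 137 CPM in Upf1-Nos and 399, 472 and 537 CPM in Upf1 (−1.83), whereas *twe* was at 380, 326 and 342 CPM in Upf1-Nos and 304, 352 and 331 CPM in Upf1 (0.09, edgeR adjusted p = 0.531). *Cdk1* had a log2 fold change of 0.13.

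Of 13 checkpoint genes 7 were lower (median −1.12), where 39.8% of all genes tested were lower. The 7 included the DNA checkpoint kinases *mei-41* (ATR, −4.79), *lok* (Chk2, −2.18) and *grp* (Chk1, −1.87). *Zw10* (−5.33), *rod* (−2.71) and *Mps1* (−3.28) of the kinetochore were lower too. The kinase *tefu* (ATM) was not called, and passed 2-fold only without Upf1 replicate 1 or Upf1-Nos replicate 1. With TMM scaling *tefu* had a log2 fold change of −0.26 (edgeR adjusted p = 0.377). *mad2* (−0.02), *BubR1* (0.13) and *Bub3* (0.14) of the spindle checkpoint were not called. *Bub1* (−1.12) lost its call without Upf1 replicate 3 (−0.98), without Upf1-Nos replicate 2 (−0.95) and with TMM scaling (−0.57). Of 13 centrosome genes and tubulins 6 were lower. They were the centriole duplication genes *Sas-4* (−5.13), *Sas-6* (−5.07) and *ana2* (−1.89), *spd-2* (−2.94), and the maternal isotypes *alphaTub67C* (−4.69) and *gammaTub37C* (−4.22). The general isotypes *alphaTub84B*, *betaTub56D* and *gammaTub23C* had log2 fold changes of 0.30, 0.11 and −0.03.

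Groups of the protein synthesis and turnover machinery behaved differently from each other. Over all genes tested 39.8% were lower, with a median log2 fold change of −0.51. All 8 subunits of the cytosolic chaperonin CCT, which folds actin and tubulin, were lower, between −3.87 (*CCT2*) and −2.07 (*CCT1*), with a median of −2.88, and all 8 were also called with TMM scaling. *CCT2* was at 37.2, 28.9 and 39.3 CPM in Upf1-Nos and at 529, 517 and 498 CPM in Upf1. Of 33 aminoacyl-tRNA synthetases, which charge tRNAs with amino acids, 22 were lower (median −2.31), 13 of 18 cytosolic and 9 of 15 mitochondrial ones. *AlaRS* was at 3.35, 2.47 and 3.66 CPM in Upf1-Nos and 178, 197 and 220 CPM in Upf1 (−5.97, standard error 0.19, edgeR adjusted p = 4.05e-12). *TyrRS*, by contrast, was at 182, 153 and 171 CPM against 171, 180 and 182 CPM (−0.08, edgeR adjusted p = 0.484).

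The proteasome parted along its architecture, a split made after the values were seen. Of 18 tested genes of the 19S regulatory particle, which recognizes and unfolds ubiquitinated proteins, 14 were lower, with a median log2 fold change of −2.06. *Rpn11*, its deubiquitinase, was at 10.4, 6.83 and 10.9 CPM in Upf1-Nos and 219, 209 and 179 CPM in Upf1 (−4.44, standard error 0.17, edgeR adjusted p = 1.20e-11). None of the 14 tested genes of the proteolytic 20S core was lower, and they ranged from −0.33 to 0.17. Over the whole list of 33, including the testis paralog *Rpt3R*, the median was −0.33, and 0.25 with TMM scaling. Of 87 cytosolic ribosomal protein genes none was called lower and 1, *RpS19b*, was called higher. Their median was −0.03, and 0.56 with TMM scaling. Since most of the 20 scaling genes encode such proteins, this group is not independent of the scaling. Of 73 mitochondrial ribosomal protein genes 18 were lower, led by *mRpL46* (−5.11) and *mRpL38* (−4.85), with a median of −0.16 that was 0.42 with TMM scaling. Of 33 subunits of respiratory complex I 5 were lower, with a median of −0.11 that was 0.47 with TMM scaling. Over all genes tested 39.8% were lower and 0.656% higher, with a median of −0.51 that was 0.06 with TMM scaling.

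**Figure D3:**
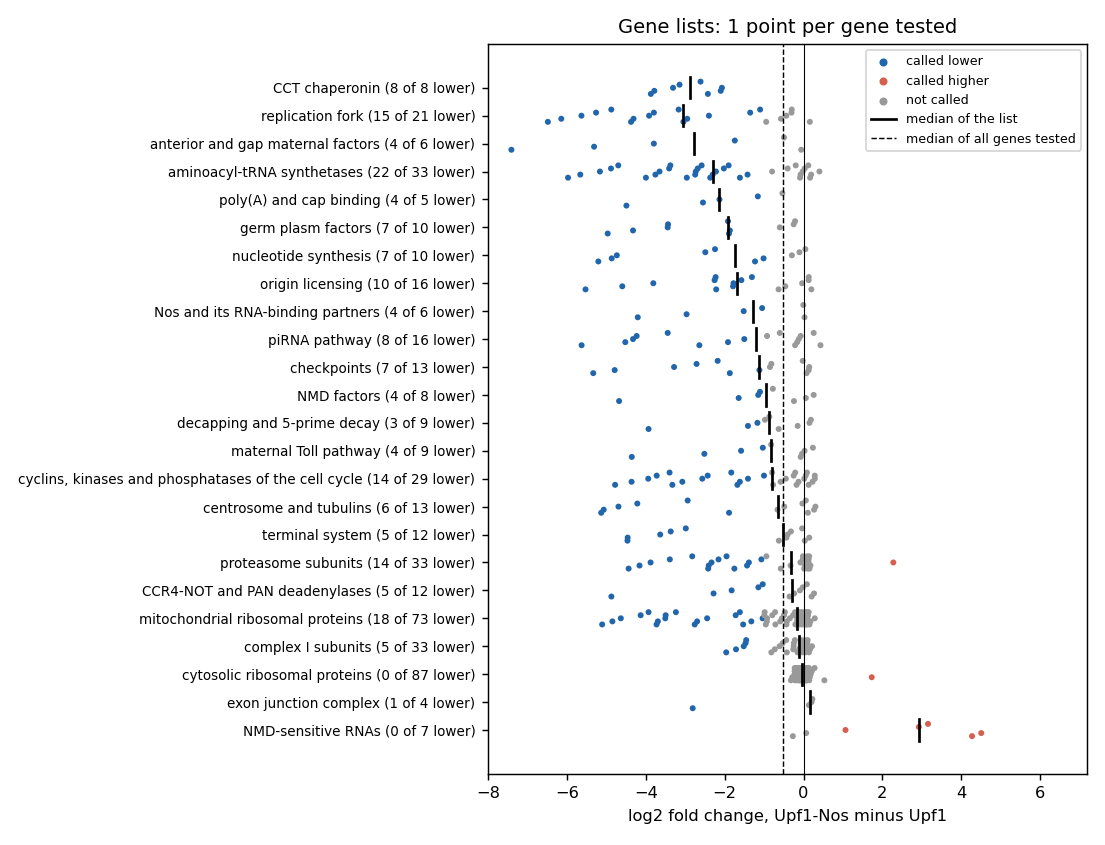
Each point is 1 tested gene of a list, with the log2 fold change, Upf1-Nos over Upf1, on the x axis and lists on the y axis. Medians (short lines) lie between −3.05 for the replication fork and 2.92 for NMD-sensitive RNAs, where the median of all genes (dashed) is −0.51.

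Factors that act in mRNA decay and translation were partly lower. Of 12 genes of the deadenylases CCR4-NOT and PAN, 5 were lower, a share near the 39.8% of all genes tested. These were *Not11* (−4.87), *twin*, the CCR4 nuclease (−2.28), *Not10* (−1.82), *Not3* (−1.15) and *Pop2*, the second nuclease (−1.04), while the scaffold *Not1* was at 542, 264 and 473 CPM in Upf1-Nos and 175, 440 and 590 CPM in Upf1 (0.09). The call for *Pop2* was lost without Upf1-Nos replicate 2 (−0.91) and with TMM scaling (−0.48), as was that for *Not3* with TMM scaling (−0.58), which left 3 of 12 lower. The median of this list was −0.30, and 0.27 with TMM scaling. Of 9 genes of decapping and 5′ decay 3 were lower. *LSm1* was between 1.88 and 1.89 CPM in Upf1-Nos and between 23.3 and 33.5 CPM in Upf1 (−3.93, standard error 0.20, edgeR adjusted p = 1.09e-10), followed by the exonuclease *pcm* (−1.41) and *tral* (−1.17). The calls for *pcm* (−0.86) and *tral* (−0.61) were lost with TMM scaling, which left 1 of 9 lower. *me31B*, a decapping helicase, lay below Upf1 in every library, at 3230, 3032 and 3125 CPM against 6157, 6046 and 4913 CPM, by less than 2-fold (−0.87).

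Of 8 NMD factors 4 were lower, where the share over all genes tested was 39.8%. They were *Upf1* itself, *eRF3* (−1.65), *nonC*, the kinase of Upf1 (−1.15), and *Smg5* (−1.11). *Upf2* (0.06) and *Upf3* (0.26), the partners of Upf1, were not called. *nonC* overlapped between the genotypes, at 22.4, 8.53 and 17.6 CPM in Upf1-Nos and 14.6, 37.2 and 55.6 CPM in Upf1, and lost its call without any 1 of 4 of these libraries. *Smg5* lost its call without Upf1 replicate 3 or Upf1-Nos replicate 2, and 2 of the 8 factors were lower with TMM scaling. Of 4 exon junction complex genes only *btz* was lower, at 20.3, 12.2 and 20.3 CPM in Upf1-Nos and 106, 130 and 134 CPM in Upf1 (−2.81). Among 5 tested proteins that bind the poly(A) tail or the cap or lengthen the tail, 4 were lower, namely *orb* (−4.49), the cap-binding protein *eIF4E1* (−2.55), *eIF4EHP* (−2.13), and the poly(A) polymerase *wisp* (−1.16), with *pAbp* at −0.54. The call for *wisp* was lost without Upf1 replicate 3 or Upf1-Nos replicate 2 and with TMM scaling (−0.62).

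In the maternal pathways of the other body axes the share of genes called lower was near the 39.8% of all genes tested. Of 9 tested genes of the maternal Toll pathway, which sets the dorsoventral axis, 4 were lower. *dl*, the transcription factor at its end, was at 6.87, 3.83 and 7.06 CPM in Upf1-Nos and at 116, 125 and 122 CPM in Upf1 (−4.36, standard error 0.21, edgeR adjusted p = 6.86e-11), and *spz*, the ligand, fell by 2.52. *Tl*, the receptor, was at 864, 534 and 711 CPM against 444, 672 and 673 CPM (0.24). Of 12 tested genes of the terminal system 5 were lower, among them *Sos* (−4.46), *Dsor1*, the MEK kinase (−3.37), and *trk*, the ligand (−2.99). The receptor *tor* had a log2 fold change of −0.40. None of 4 tested activators of the zygotic genome was called, *zld* being at −0.32.

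The genes with the largest fold changes downward were mostly of low abundance. *Hsp70Aa* had no count in any Upf1-Nos library and 3.29, 4.10 and 3.19 CPM in Upf1, at least 68.5-fold lower with a floor of 3 counts over the group. It has near-identical copies among which reads can be split, so its value is uncertain. *Xrcc2*, a gene of recombination repair, had 2 counts in all Upf1-Nos libraries together and 609 in Upf1, a ratio of 368 with a 95% counting interval of 101 to 3045. *SA1*, a cohesin subunit, was at 0.0541, 0.0969 and 0.261 CPM in Upf1-Nos and 24.6, 34.1 and 28.3 CPM in Upf1 (−7.65, standard error 0.32, edgeR adjusted p = 2.35e-11), and had a log2 fold change of −8.45 without Upf1-Nos replicate 3. *CG4476* (−6.85), *Hr96*, a nuclear receptor (−6.81), *CG17660* (−6.71), *CG9609* (−6.61) and *Mettl3*, the m6A methyltransferase (−6.58), followed *hb*.

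By the fall in mean CPM, which is not scaled for transcript length, *Hsp83* stood first. This gene of the chaperone Hsp90 was at 215, 99.9 and 195 CPM in Upf1-Nos and at 3577, 3838 and 4071 CPM in Upf1 (log2 fold change −4.49, standard error 0.23, edgeR adjusted p = 1.81e-10). *dhd*, a maternal thioredoxin, was at 61.3, 55.2 and 53.8 CPM against 1743, 1501 and 1064 CPM (−4.66), and *Hsp26*, a small heat shock protein, at 58.9, 46.6 and 53.6 CPM against 1353, 1191 and 965 CPM (−4.46). The genotypes were far apart in all 3 genes. The other members of the first 10 were *rdx* (−3.28), *Eno*, which encodes enolase (−2.85), *Pxt* (−2.58), *lost* (−2.52), the protease *CtsK1* (−2.50), *ATPsynbeta*, a subunit of the mitochondrial ATP synthase (−1.68), and *tral*.

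The genes that were higher in Upf1-Nos were few, and hosts of small nucleolar RNAs led them. These *Uhg* genes carry the small RNAs in their introns, and their spliced transcripts are known substrates of NMD. *Uhg1* (FBgn0045800) was at 190, 210 and 180 CPM in Upf1-Nos and at 11.5, 7.33 and 6.75 CPM in Upf1, a log2 fold change of 4.51 (standard error 0.18, edgeR adjusted p = 1.42e-11). *Uhg2* was at 55.4, 64.3 and 62.6 CPM against 3.22, 2.89 and 3.31 CPM (4.27), and *Uhg5* at 20.1, 20.1 and 18.1 CPM against 2.95, 2.08 and 1.53 CPM (3.16). *Uhg8* was at 21.9, 27.4 and 25.5 CPM in Upf1-Nos and 4.93, 2.83 and 2.15 CPM in Upf1 (2.92). In these 4 genes the lowest Upf1-Nos library was above the highest Upf1 library several times over. *Uhg4* rose less, by 1.06 on the log2 scale, and its call was lost without Upf1 replicate 3 (0.94). Of 7 tested NMD-sensitive RNAs 5 were thus higher and none lower. Over all genes tested 45 of 6857 (0.656%) were higher and 39.8% lower. In the lowest of the 5 classes by level in wild type, which holds all genes called higher, 45 of 1371 were higher. *Uhg3* was at 18.9, 19.4 and 16.6 CPM against 26.0, 21.0 and 19.3 CPM (−0.27), and *Arc1* had a log2 fold change of 0.07. *Uhg7* and *Gadd45* did not pass the filter.

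The rise of the *Uhg* genes was also present in the embryos that expressed Upf1-NosL7. Over wild type, *Uhg1* had a log2 fold change of 4.26 in Upf1-Nos, 4.86 in Upf1-NosL7 and −0.25 in Upf1. *Uhg2* had log2 fold changes of 4.97, 5.04 and 0.69, *Uhg5* of 2.17, 2.55 and −0.98, and *Uhg8* of 4.48, 5.11 and 1.55, in the same order. These contrasts share the wild-type libraries. Set directly against Upf1-NosL7, Upf1-Nos had a log2 fold change of −0.60 for *Uhg1* (edgeR adjusted p = 0.00241) and −0.07 for *Uhg2* (edgeR adjusted p = 0.682), both within 2-fold. *Uhg4* differed, at 21.1 CPM on average in Upf1-Nos and 99.5 CPM in Upf1-NosL7, a log2 fold change of −2.24 (edgeR adjusted p = 7.55e-09).

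Among the 45 genes called higher, 36 encode proteins and 9 are noncoding. After the *Uhg* genes the largest fold changes were those of *nolo* (2.90), at 1.19, 2.08 and 1.93 CPM in Upf1-Nos and 0.0685, 0 and 0.614 CPM in Upf1, *mia* (2.34), *Rpt3R* (2.28), *CG40498* (2.21), *pyx*, a TRP channel (1.95), and *corolla*, a protein of the synaptonemal complex (1.90). *nolo* rests on few counts, and its log2 fold change was 5.53 without Upf1 replicate 3 and 2.27 without Upf1 replicate 2. *Rpt3R* was at 13.0, 11.1 and 12.3 CPM in Upf1-Nos and at 3.22, 2.37 and 1.96 CPM in Upf1. By the rise in mean CPM, *Xxylt* (1.87) and *GstD9*, a glutathione transferase (1.12), were among the first 10. So was *asRNA:CR42254*, an antisense RNA for which reads of the opposite strand cannot be told apart, since no source states a strand-aware count.

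Single mRNA isoforms gave a similar picture. Of 12840 isoforms tested, 4119 (32.1%) were lower and 97 (0.755%) higher, and 30 of the 97 were estimated at 0 in all 3 Upf1 libraries. Of the genes with a lower isoform, 180 of 2812 had not been called lower as genes, and 72 of the genes called lower had no lower isoform. Isoform levels are estimates made by dividing reads that several isoforms share.

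Isoform usage, the relative level of the isoforms of 1 gene, differed between Upf1-Nos and Upf1 in 376 of 3249 genes (11.6%, edgeR diffSpliceDGE, adjusted p below 0.05). In 198 of these, 1 isoform or more was lower while another was not. *eIF4EHP*, a translational repressor that binds the cap, has 2 tested isoforms. FBtr0084587, with a 3′ UTR of 730 nt, was at 7.29, 4.31 and 7.11 CPM in Upf1-Nos and 119, 117 and 108 CPM in Upf1 (log2 fold change −4.20). FBtr0300475, with a 3′ UTR of 1201 nt, was at 30.2, 21.7 and 25.1 CPM against 20.3, 24.1 and 25.2 CPM (0.14). The genotypes overlapped for the second isoform and were far apart for the first.

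In some genes isoforms were lower while the gene was not called. *lola*, a gene of many transcription factor isoforms, had a gene-level log2 fold change of 0.06, yet 4 of its 17 tested isoforms were lower, of which FBtr0089345, the most abundant, was at 6.57, 3.35 and 6.53 CPM in Upf1-Nos and 42.4, 65.0 and 70.1 CPM in Upf1 (−3.43). In *mod(mdg4)*, also not called as a gene (−0.06), FBtr0084074 was at 30.9, 18.2 and 19.6 CPM against 75.5, 76.1 and 74.7 CPM (−1.72), among 22 tested isoforms. Other genes were called lower as a whole. In *CG12054* (−1.07 as a gene) 1 of 4 tested isoforms was lower, FBtr0085758 (−2.67), beside the abundant FBtr0335409 at 75.7, 61.0 and 70.7 CPM in Upf1-Nos and 75.3, 71.9 and 76.3 CPM in Upf1 (−0.11). In *CkIIbeta*, the regulatory subunit of casein kinase II (−2.29 as a gene), FBtr0073560 was estimated at 0 in all Upf1-Nos libraries and at 77.5, 74.7 and 47.6 CPM in Upf1, while FBtr0073558 kept 36.9, 40.4 and 37.5 CPM against 112, 124 and 93.8 CPM (−1.52). *CG8026* and *CG45085* share isoforms with identical values, so that their reads cannot be told apart.

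**Figure D4:**
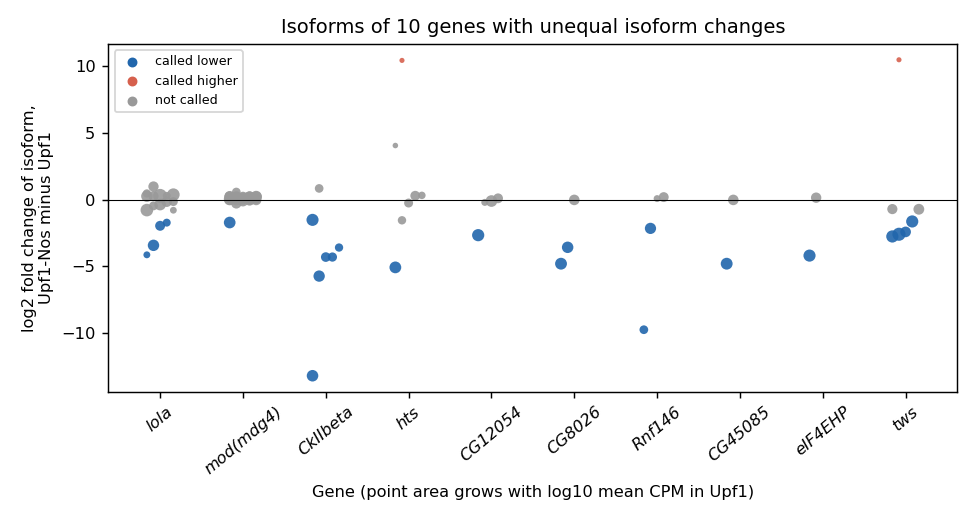
Log2 fold changes, Upf1-Nos over Upf1 (y axis), of the tested isoforms of 10 genes with unequal isoform changes (x axis), 1 point per isoform, with an area that grows with the level in Upf1. In *lola* and *mod(mdg4)* most isoforms lie near 0 and a few lie below, and points for isoforms estimated at 0 in a genotype depend on the prior count.

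The share of isoforms called lower varied with their annotated length. It was 12.8% among isoforms of up to 500 nt and 21.1% between 500 and 1000 nt, and lay between 34.4% and 35.6% in the 4 classes between 1000 and 4000 nt. Above this it was 31.5% between 4000 and 6000 nt and 24.5% among longer ones. Isoforms that were not called lower had medians between −0.10 and 0.02 up to 6000 nt and of −0.23 above. The 3′ UTR of the most abundant isoform had a median of 265 nt (quartiles 129 and 550) in genes called lower and 221 nt (102 and 500) in genes not called. With the longest annotated 3′ UTR the medians were 339 and 303 nt. These lengths come from a later annotation than the one used for the counts and are given as a description.

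The same genes were read in embryos of *nos* mutant mothers, which share no library with the sorted embryos. Over all genes tested at 2 to 3 hours, 1570 of 8445 (18.6%) were higher in *nos* mutant than in wild-type embryos and 743 (8.8%) lower, with the same limit on adjusted p and a log2 fold change beyond 0.5. Of the genes lower in Upf1-Nos than in Upf1, 1168 of 2720 (42.9%, 95% Wilson interval 41.1% to 44.8%, counting error only) were higher in *nos* mutant embryos and 64 (2.35%) lower, with a median log2 fold change of 0.43. Of the genes not called in Upf1-Nos, 178 of 4044 (4.40%) were higher and 386 (9.55%) lower, with a median of −0.16. At 0 to 1 hours the corresponding medians were 0.02 and 0.10. These embryos were not sorted by stage. Of 20 zygotic markers of older embryos, only the 9 that passed the filter in the sorted embryos were read here. Of these 9, 6 were lower and none higher in *nos* mutant embryos at 2 to 3 hours (median −0.63). Of 12 maternal markers 6 were higher and 1, the mutated gene *nos*, was lower (median 0.67). The part of both sets in the share was not tested. The share of the genes lower in Upf1-Nos ranged from 38.7% without *nos* mutant replicate 2 to 51.2% without wild-type replicate 3.

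The share changed with the size of the fall in Upf1-Nos up to a point. It was 6.03% of 2190 genes with a log2 fold change between 0 and −1, 27.2% of 919 between −1 and −2, and 49.4% of 660 between −2 and −3. It was 53.4% of 539 genes between −3 and −4 and 49.7% of 614 below −4.

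**Figure D5:**
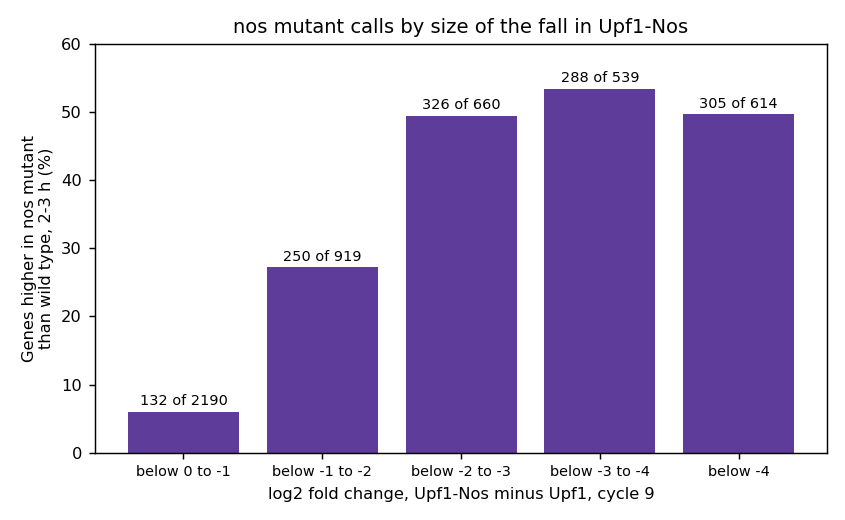
The share of genes higher in *nos* mutant than in wild-type embryos at 2 to 3 hours (bars, %) by the log2 fold change of the gene, Upf1-Nos over Upf1, at cycle 9. The share is 6.03% in the class nearest 0 and between 49.4% and 53.4% in the 3 classes below −2.

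*gammaTub37C*, which fell by 4.22 in Upf1-Nos, was at 68.8, 84.4 and 59.2 CPM in *nos* mutant embryos and at 4.19, 5.62 and 3.91 CPM in wild type (3.95, standard error 0.18, edgeR adjusted p = 2.66e-07). *osk* was at 140, 146 and 84.0 CPM in *nos* mutant and 34.9, 19.8 and 11.8 CPM in wild-type embryos (2.48), and *bru1* at 296, 260 and 140 CPM against 93.2, 50.1 and 36.1 CPM (1.96). None of these 3 genes overlapped between *nos* mutant and wild type, and replicate 3 was the lowest of the *nos* mutant libraries in each. *alphaTub67C* (2.15), *dhd* (2.29), *MetRS* (2.03), *Hsp26* (1.98) and *exu* (1.86) were higher too. *hb* was at 396, 356 and 394 CPM in *nos* mutant and 371, 346 and 322 CPM in wild-type embryos (0.14, edgeR adjusted p = 0.265), at an age when *hb* is also transcribed by the embryo. At 0 to 1 hours *hb* had a log2 fold change of 0.47 (edgeR adjusted p = 0.00595), short of the limit of 0.5. At 2 to 3 hours *bcd* had a log2 fold change of 0.18 (edgeR adjusted p = 0.433). There *nos* itself, at 2.22, 1.67 and 2.30 CPM in the mutant and 79.6, 63.1 and 66.6 CPM in wild type, checked the label (−5.09). *AGO3*, not called in Upf1-Nos, was lower in *nos* mutant embryos (−1.05).

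The lists differed in this reading as well. Of all 6803 genes tested in both, 1355 were higher in *nos* mutant embryos and 457 lower. Of genes tested in both, 7 of 10 germ plasm factors (1 lower), 5 of 8 CCT subunits, 15 of 33 aminoacyl-tRNA synthetases, 10 of 21 replication fork genes (1 lower) and 7 of 16 piRNA pathway genes (5 lower) were higher in *nos* mutant embryos. Among 12 deadenylase genes and 33 complex I subunits none was called in either direction, and 1 of 86 cytosolic ribosomal protein genes was higher. Of the 4 depleted anterior factors *exu* and *swa* were higher.

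Far fewer genes were called in the other genotypes when each was set against wild type. With the same test and libraries, 2725 genes were lower and 150 higher in Upf1-Nos than in wild type, 158 lower and 118 higher in Upf1, and 201 lower and 155 higher in Upf1-NosL7. In embryos that expressed Nos alone, 197 genes were lower and 187 higher than in wild type. Upf1-NosL7 embryos held *hb* at 82.4 CPM, *bcd* at 236 CPM, *osk* at 685 CPM and *Hsp83* at 2867 CPM on average, where Upf1-Nos embryos held 0.930, 6.47, 27.3 and 170 CPM and wild-type embryos 123, 219, 647 and 3642 CPM. Against Upf1-NosL7, Upf1-Nos had log2 fold changes of −6.46 for *hb*, −5.20 for *bcd*, −4.65 for *osk* and −4.07 for *Hsp83*. Set against Upf1, Upf1-NosL7 had 579 genes lower and 88 higher, with a log2 fold change of −0.95 for *hb* (edgeR adjusted p = 0.00361). These contrasts share libraries with that of Upf1-Nos and Upf1 and are given side by side only.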

How the data were processed

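Poly(A)-selected RNA of 27 embryo samples was sequenced as paired reads by the authors, who removed adapters, short reads and reads of mitochondrial, transfer and ribosomal RNA, aligned with STAR 2.5.3a to BDGP6 and counted with RSEM 1.3.0. The tables deposited by the authors hold RSEM expected counts per gene and per isoform. The TPM values deposited by the authors, scaled by RSEM for length and depth, served only to describe levels. Here expected counts were rounded, filtered with filterByExpr (count minimum 30), scaled by TMM and tested with edgeR 4.0.16 in R 4.3.3, by the quasi-likelihood test with Benjamini-Hochberg adjustment, in 1 fit of the 15 sorted libraries. As in the study's methods, each Upf1-Nos library took the mean ratio to wild type of 20 abundant genes (21 isoforms) in place of its TMM factor. Fold changes use a prior count of 0.125. The 12 unsorted libraries were fitted separately with TMM. There deviations of *nos* mutant and wild-type libraries with equal replicate numbers correlated, with r of 0.50, 0.23 and 0.13. Between *nos* mutant replicate 2 and wild-type replicate 3 r was 0.15, so whether the numbers pair the samples is uncertain. With a replicate block 1639 genes were higher in place of 1570. The share of genes lower in Upf1-Nos that were higher in *nos* mutant embryos was then 43.3% in place of 42.9%. The code was checked on simulated data.

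The genes named are those of lists and those with the largest changes by fold or CPM among genes called. The comparison, lists and rules were chosen with earlier results of these data known. Exceptions are the 19S and 20S split, made after the values were seen. Names and lengths came from a later annotation matched by identifier (17587 of 17714 genes). No library was left out. Some genes that the rule names are not reported here. Binomial and counting intervals cover counting error only.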

Additional observations from a re-analysis of the deposited data

How the results depend on the processing

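More genes were lower than higher in every alternative run. Direction was followed gene by gene only for named genes and members of lists other than the marker, scaling, ribosomal and complex I lists. Among these no called gene changed direction. With TMM the medians of all genes (0.06), deadenylases (0.27), proteasome (0.25), complex I (0.47), mitochondrial (0.42) and cytosolic ribosomal proteins (0.56) and the terminal system (0.03) changed sign. Genes lower and higher numbered 2194 and 206 with TMM and no correction, 2165 and 217 with DESeq2 size factors, and 2712 and 46 with a replicate block on the 6 libraries, whose numbers do not pair the samples (r of −0.57, −0.28 and 0.36). Genes higher numbered 124 with no filter on low counts and 91 with lower minimums. Beyond 4-fold, 1813 genes were lower and 8 higher. The later form of the quasi-likelihood test, chosen after seeing the data, gave 2728 and 46. With single libraries left out, genes lower ranged over 2639 to 2809, genes higher over 51 to 63, isoforms lower over 3883 to 4227, isoforms higher over 67 to 112, genes with unequal isoform usage over 289 to 396, genes higher in *nos* mutant embryos over 1379 to 1778, and the share of genes lower in Upf1-Nos that were higher in *nos* mutant embryos over 38.7% to 51.2%. That share was 47.7% with the DESeq2 Wald test. Isoforms higher numbered 417 with TMM. The median of the longest annotated 3′ UTR was 339 nt in genes called lower and 303 nt in genes not called. The cause of these differences was not tested. A search for sequence motifs was not run.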
